A study of Mus musculus with 37 samples.

Results

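Genes that cut, inhibit, crosslink and scaffold the extracellular matrix were compared between the hippocampus of mice that lost the histone demethylase Kdm1a in adult forebrain neurons and that of their control littermates. The members were taken from the GENCODE M21 annotation by patterns of gene symbols and, for the lecticans, tenascins, Hspg2 and Comp, by name. They comprise the ADAMTS proteases (Adamts and a number), the ADAMTS-like proteins (Adamtsl), the matrix metalloproteinases (Mmp), their tissue inhibitors (Timp1 to Timp4), the lysyl oxidases (Lox and Loxl1 to Loxl4), the link proteins (Hapln1 to Hapln4), the 4 lecticans Acan, Bcan, Ncan and Vcan, the tenascins Tnc and Tnr, and the scaffold genes Hspg2 and Comp. This gave 68 of the 48795 genes counted. The RNA came from whole hippocampi of tamoxifen-treated male mice, with 3 control (WT) and 3 Kdm1a-ifKO libraries. Kdm1a-ifKOs carry floxed Kdm1a alleles and the Camk2a-creERT2 transgene, whose promoter confines recombination to excitatory forebrain neurons, and they received tamoxifen at 8 weeks of age. Controls were littermates without the recombinase that received tamoxifen as well. The age at dissection of these animals is not given in the sources used here. Loops held by CTCF were available from 1 ChIA-PET library of Camk2a+ hippocampal neurons labelled WT and tamoxifen-treated. Nuclei of such neurons were sorted in the study from mice that carry Camk2a-creERT2 and a CAG-Sun1/sfGFP reporter, at 12 weeks of age and a month after tamoxifen, so these animals differ from the RNA-seq controls.

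Lecticans are chondroitin sulfate proteoglycans that bind hyaluronan, and link proteins lock this binding. Together with tenascin-R they build the diffuse matrix of the brain and the perineuronal nets, the dense coats around the bodies and dendrites of certain neurons, in particular fast-spiking interneurons. ADAMTS proteases and matrix metalloproteinases cleave these proteoglycans and other matrix proteins, Timps block the metalloproteinases, and lysyl oxidases crosslink elastin and collagen. Most of these proteins are secreted or sit at the cell surface, and in the brain they are made by astrocytes and oligodendrocyte precursors as well as by neurons. In bulk tissue, a change in the number of cells of a type and a change in RNA per cell cannot be told apart.

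The control libraries held between 18985542 and 19160327 counts and the Kdm1a-ifKO libraries between 19370926 and 19469947. Kdm1a counts were 1521, 1545 and 1481 in controls and 764, 726 and 748 in Kdm1a-ifKOs, a log2 fold change (log2FC) of -1.07 (adjusted p = 6.24e-08, edgeR quasi-likelihood test). These counts include cells outside the recombined population. The first principal component separated the genotypes, while on the second the third control and the second Kdm1a-ifKO library lay far from the rest. Nothing in the labels names a batch. The labels tie the libraries to separate samples of a genotype, so p-values measure the spread between these samples.

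Of the 68 members, 52 passed edgeR's filter on low counts and were tested, and 16 did not. With a threshold of 0.05 on the p-value adjusted over all 16799 tested genes, 19 members rose in Kdm1a-ifKOs and 1, Adamts16, fell, while 32 did not pass in either direction. Over all tested genes, 6.04% passed as higher and 2.82% as lower. Of the 19, 8 had a log2FC over 1, which 1.36% of tested genes reached as higher. The 3 Kdm1a-ifKO libraries lay above all 3 control libraries for 20 tested members and below them for 3, against 15.7% and 14.4% of all tested genes. Lox, Loxl4, Adamts7 and Comp passed the filter only through the Kdm1a-ifKO libraries, so a difference was built into their selection. They are among the 8 with a log2FC over 1. Of the 48 members that pass the filter in the control libraries alone, 15 rose (31.2%), against 5.78% of the genes that pass it in the same way. The median log2FC of these 48 was 0.13, while that of the 15988 such genes in all was -0.0084. The members were chosen with earlier results of these data known, so these shares and medians are not an independent test. Without the 2 libraries that stood apart, 14 members rose and 1 fell. With single libraries left out, 12 rose without Kdm1a-ifKO replicate 1, Kdm1a-ifKO replicate 2 or control replicate 1, 11 without Kdm1a-ifKO replicate 3, and 13 and 15 without control replicates 3 and 2. Adamts16 passed as lower in 1 of these 6 fits. By class, the calls were 3 of 4 tested lysyl oxidases, 2 of 4 link proteins, 2 of 4 lecticans, both Hspg2 and Comp, 1 of 3 Timps, 2 of 5 ADAMTS-like genes, 4 of 11 metalloproteinases and 3 of 17 ADAMTS proteases higher, and none of the tenascins. These class counts include Lox, Loxl4, Adamts7 and Comp. Only 2 lysyl oxidases, Loxl1 and Loxl3, pass the filter in controls alone, and of them only Loxl1 rose. The plot of fold changes by class shows the largest increases for Loxl1, Lox, Adamts7 and Loxl4. Of these genes, only Loxl1 passes the filter in controls alone.

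**Figure D1:**
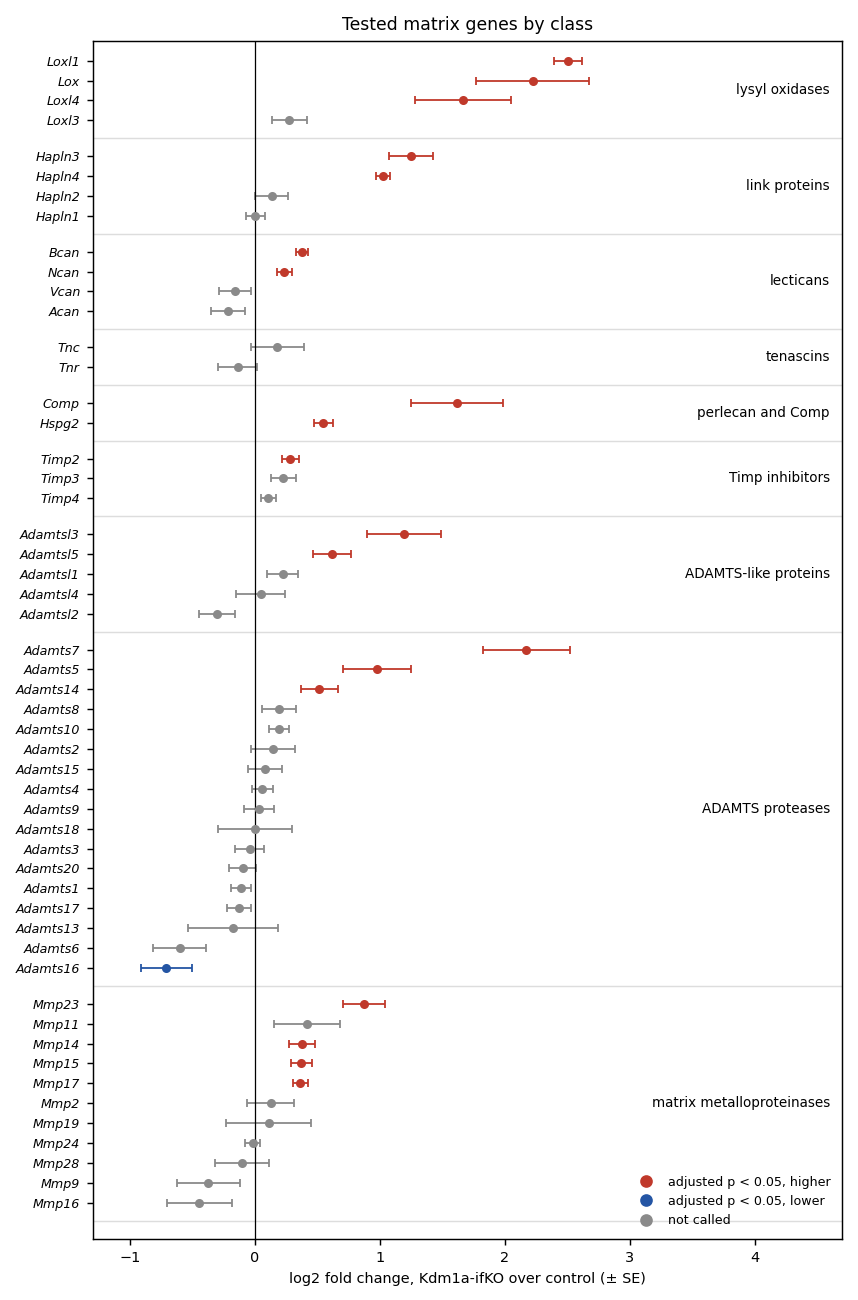
Log2 fold change (Kdm1a-ifKO over control, x axis) with its standard error for each of the 52 tested members, ordered within 9 classes; red points have an adjusted p under 0.05 and are higher, the blue point is lower, grey points did not pass. The lysyl oxidases Loxl1, Lox and Loxl4, the ADAMTS protease Adamts7 and Comp lie between 1.61 and 2.50, most proteases lie near 0, and Adamts16 is at -0.71. Lox, Loxl4, Adamts7 and Comp passed the filter only through the Kdm1a-ifKO libraries.

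The starts of 4 genes are shown because they mark the contrasts described below: Hapln3, which rose, its neighbour Acan, which did not pass the test, Loxl4, a crosslinker gene that rose from a low level, and Mmp3, a metalloproteinase gene at 0 counts throughout. The sequences are RefSeq promoters of GRCm38.p6, from 250 bases before to 50 bases after the annotated start, 5′ to 3′ on the strand of the gene, with CpG dinucleotides in capitals. Hapln3 is chr7:79130969-79131268 (minus strand, 9 CpGs), Acan chr7:79052976-79053275 (plus strand, 31 CpGs), Loxl4 chr19:42612757-42613056 (minus strand, 32 CpGs) and Mmp3 chr9:7445572-7445871 (plus strand, 1 CpG).
Hapln3: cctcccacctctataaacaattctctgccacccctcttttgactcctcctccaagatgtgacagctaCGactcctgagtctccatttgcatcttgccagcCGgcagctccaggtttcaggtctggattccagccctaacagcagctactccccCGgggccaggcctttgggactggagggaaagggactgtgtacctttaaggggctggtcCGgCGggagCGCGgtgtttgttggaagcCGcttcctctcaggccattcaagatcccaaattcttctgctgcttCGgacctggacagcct
Acan: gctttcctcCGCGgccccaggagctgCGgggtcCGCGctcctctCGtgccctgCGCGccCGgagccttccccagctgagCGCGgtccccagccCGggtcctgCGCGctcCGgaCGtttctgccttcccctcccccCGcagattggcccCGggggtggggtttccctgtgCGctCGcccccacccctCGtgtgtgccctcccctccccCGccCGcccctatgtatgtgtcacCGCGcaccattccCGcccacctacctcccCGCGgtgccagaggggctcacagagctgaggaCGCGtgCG
Loxl4: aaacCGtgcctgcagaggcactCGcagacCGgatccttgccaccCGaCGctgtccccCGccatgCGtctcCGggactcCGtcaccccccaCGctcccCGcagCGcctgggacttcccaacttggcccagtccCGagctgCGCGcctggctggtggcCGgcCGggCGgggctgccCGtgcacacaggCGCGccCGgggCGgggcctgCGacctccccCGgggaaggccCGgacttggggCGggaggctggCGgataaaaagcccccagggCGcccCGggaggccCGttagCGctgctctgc
Mmp3: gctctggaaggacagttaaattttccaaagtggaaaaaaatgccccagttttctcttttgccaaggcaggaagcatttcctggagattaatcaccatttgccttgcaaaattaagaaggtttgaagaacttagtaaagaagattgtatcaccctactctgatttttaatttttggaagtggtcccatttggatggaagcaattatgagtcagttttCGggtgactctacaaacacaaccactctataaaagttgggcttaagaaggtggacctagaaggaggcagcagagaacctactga

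RefSeq promoters were found for 47 of the 68 members. They were missing for Loxl1, Lox, Hapln4, Adamts7, Adamts5, Mmp17 and Comp, all of which rose, so the values below do not cover these genes. The CpG count of the promoters found had a median of 24.5 in the 12 of members that rose, 19 in the 21 of tested members that did not pass, and 1.5 in the 14 of untested members, against 7 over all 32851 promoters. Members that rose ranged from 9 CpGs (Hapln3 and Ncan) to 46 (Adamtsl3), and members that did not pass from 2 to 44, and the ranges overlapped. The GC box GGGCGG, on either strand, stood in 10 of 12 promoters of members that rose and 16 of 21 that did not pass, against 35.7% of all promoters. The letters TATAAA, on either strand, stood in 2 of 12, in 3 of 21 and, among untested members, in 9 of 14, against 13.6% of all. The letters TTCAGCACC, the left part of the RE1 motif bound by REST, were on either strand in 0 of the 47 windows, against 0.371% of all promoters. At so low a share, 47 windows are too few to tell the members from all promoters. These counts describe letters in a short window and not bound sites. The set of all promoters includes those of untested genes and can hold several for a gene. Members have only the promoter nearest to their annotated start. These sets are unlike, so the differences from all promoters are not read as a trait of the members.

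Lysyl oxidases oxidize lysine residues of elastin and collagen, the first step of their crosslinking. Loxl1 (ENSMUSG00000032334, chromosome 9, 58287738 to 58313186), best known for the renewal of elastic fibres, had 65, 68 and 71 counts in controls and 424, 367 and 406 in Kdm1a-ifKOs. The groups were far apart, with 3.59 ± 0.209 CPM (counts scaled to the library size, SD, n = 3) against 20.4 ± 1.63 CPM (SD, n = 3). The 5.67-fold increase (log2FC 2.50, standard error 0.111, adjusted p = 1.42e-08) was the largest among the members. Lox had 4, 4 and 5 counts in controls and 11, 27 and 26 in Kdm1a-ifKOs, a log2FC of 2.22 (adjusted p = 0.00809), with replicate 1 of the Kdm1a-ifKOs well below the other two. Loxl4 had 4, 7 and 4 counts against 16, 18 and 16, a log2FC of 1.67 (adjusted p = 0.0168). Both are low in the hippocampus, at 0.229 and 0.264 CPM in controls, so their folds rest on few reads. Both passed the filter only through the Kdm1a-ifKO libraries. Loxl4 lost its call without either outer library of each genotype (controls 1 and 3, Kdm1a-ifKOs 1 and 3), with adjusted p from 0.0514 to 0.0569. Loxl3 had 108, 104 and 102 counts in controls and 132, 149 and 111 in Kdm1a-ifKOs. Its groups did not overlap, but its log2FC of 0.27 did not pass (adjusted p = 0.251). Loxl2 was not tested, with 3, 7 and 6 counts against 8, 12 and 7. Lox lies on chromosome 18, from 52516067 to 52529867, within reach of the antisense transcript AC161119.1, and Loxl3 overlaps Htra2. The strand setting of the counting is not stated, so reads of overlapping genes may be mixed.

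Lecticans and link proteins lie in pairs in the mouse genome, as do Acan with Hapln3, Bcan with Hapln2, Ncan with Hapln4 and Vcan with Hapln1, and no other annotated gene lies between the partners. The members of a pair did not move together in all of them. Hapln4 and Ncan both rose, Hapln3 and Bcan rose while their partners did not pass, and neither Vcan nor Hapln1 passed. The differences between partners were not tested.

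Hapln4 (ENSMUSG00000007594, chromosome 8, 70083457 to 70090862), a brain link protein of perineuronal nets and inhibitory synapses, had 2738, 2560 and 2594 counts in controls and 5695, 5181 and 5647 in Kdm1a-ifKOs. It went from 139 ± 4.4 to 282 ± 16.4 CPM (SD, n = 3 each), a 2.03-fold increase (log2FC 1.02, standard error 0.0563, adjusted p = 9.39e-08). The gain of 143 CPM was the largest in absolute terms of all members, since Hapln4 is already an abundant transcript. Ncan, which encodes neurocan, ends 2.223 kb from it on the opposite strand, from 70093085 to 70120873. Its counts were 4913, 4556 and 4044 in controls and 5355, 5480 and 5581 in Kdm1a-ifKOs. The groups did not overlap, but the increase from 238 to 280 CPM was small (log2FC 0.24, adjusted p = 0.0283). It lost its call without Kdm1a-ifKO replicate 1, 2 or 3 or control replicate 2, with adjusted p between 0.0632 and 0.137.

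Hapln3 (ENSMUSG00000030606, chromosome 7, 79115102 to 79131018) encodes a link protein found mainly outside the brain. It had 30, 35 and 33 counts in controls and 84, 81 and 76 in Kdm1a-ifKOs, or 1.73 ± 0.14 and 4.11 ± 0.208 CPM (SD, n = 3 each). It rose by a log2FC of 1.25 with a standard error of 0.177 (adjusted p = 5.72e-04). Acan, which encodes aggrecan, the main proteoglycan of perineuronal nets, ends 0.003 kb from Hapln3, tail to tail. Its counts were 144, 131 and 116 in controls and 127, 119 and 102 in Kdm1a-ifKOs, which overlap, and its log2FC of -0.21 did not pass (adjusted p = 0.367). The annotated genes do not overlap.

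Bcan (ENSMUSG00000004892, chromosome 3, 87987531 to 88000230), which encodes brevican, an adult brain proteoglycan made by astrocytes and neurons, had 6454, 5995 and 5902 counts in controls and 8093, 8348 and 8177 in Kdm1a-ifKOs. It rose from 323 ± 12.5 to 420 ± 3.83 CPM (SD, n = 3 each), by a log2FC of 0.38 (adjusted p = 2.65e-04). Its neighbour Hapln2, a link protein of the nodes of Ranvier, had 576, 468 and 480 against 477, 567 and 682 counts, and a log2FC of 0.13 (adjusted p = 0.584). Vcan, which encodes versican, had 418, 433 and 571 counts in controls and 402, 431 and 481 in Kdm1a-ifKOs, with a log2FC of -0.16 (adjusted p = 0.493). Hapln1, the link protein of cartilage and of perineuronal nets, had 514, 596 and 589 against 581, 581 and 595 counts, and its log2FC was 0.0017 (adjusted p = 0.994). Its libraries were nearly level. The plot of the 4 pairs sets these values side by side.

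**Figure D2:**
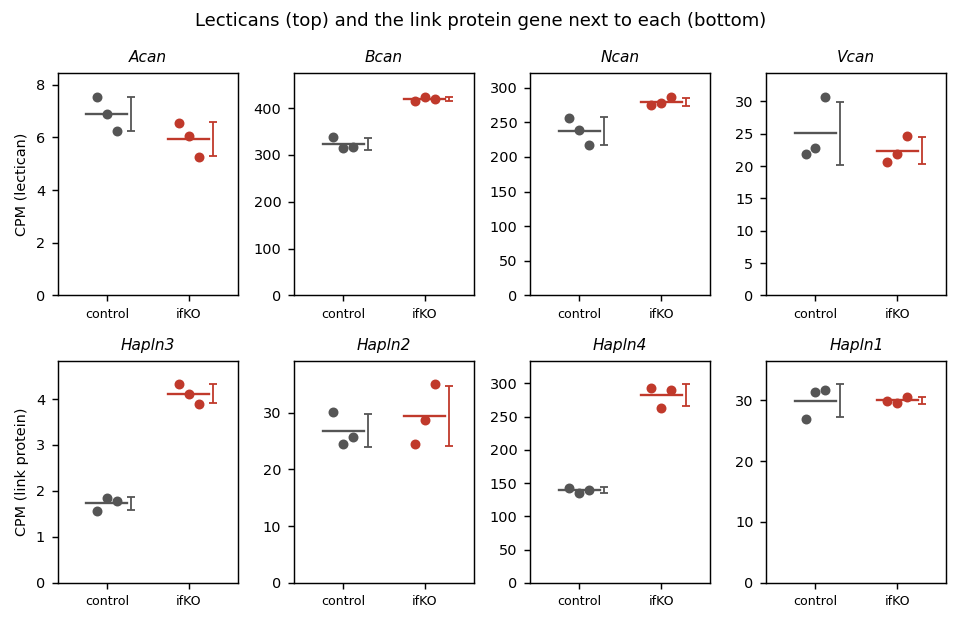
CPM per library (y axis, from 0) of the 4 lecticans (top) and of the link protein gene beside each (bottom), in 3 control libraries (grey) and 3 Kdm1a-ifKO libraries (red); horizontal lines are means and bars 1 SD. Hapln4 rises from 139 to 282 CPM and Hapln3 from 1.73 to 4.11 CPM without overlap, Bcan and Ncan rise less, and Acan, Vcan, Hapln1 and Hapln2 overlap between groups.

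The tenascins did not pass. Tnr, which encodes tenascin-R and joins lecticans into nets, had 4008, 3948 and 5598 counts in controls and 4235, 4141 and 4346 in Kdm1a-ifKOs. Control replicate 3, one of the libraries that stood apart, was above the rest, and the log2FC of -0.14 (adjusted p = 0.644) was 0.061 without it. Tnc, which encodes tenascin-C, had 144, 141 and 95 against 146, 190 and 108 counts, with a log2FC of 0.18 (adjusted p = 0.664) that was -0.037 without Kdm1a-ifKO replicate 2. Hspg2 (chromosome 4, 137468769 to 137570630) encodes perlecan, the heparan sulfate proteoglycan of basement membranes. It had 298, 322 and 307 counts in controls and 438, 489 and 472 in Kdm1a-ifKOs, or 16.3 ± 0.677 and 23.9 ± 1.2 CPM (SD, n = 3 each). It rose by a log2FC of 0.55 (adjusted p = 5.94e-04). It lies 866 kb from Kdm1a on the same chromosome. Comp, a pentameric matrix protein of cartilage and tendon, had 4, 7 and 9 counts against 17, 23 and 24, a log2FC of 1.61 (adjusted p = 0.0158), from 0.353 CPM. The groups did not overlap, but the call was lost without control replicate 1 (adjusted p = 0.0555), without Kdm1a-ifKO replicate 3 (0.0647) and in DESeq2 (0.0558). Comp passed the filter only through the Kdm1a-ifKO libraries.

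Among the Timps, Timp2 was the most abundant member in controls with 338 ± 23.8 TPM (scaled for exon length and library size, SD, n = 3). Its libraries overlapped those of Bcan at 316 TPM, which followed, while Mmp17 at 159 TPM was below both. Timp2 had 6144, 6825 and 5873 counts in controls and 7885, 8554 and 7210 in Kdm1a-ifKOs, a log2FC of 0.28 (adjusted p = 0.0211). The groups did not overlap. The call was lost without control replicate 1 or 3 or Kdm1a-ifKO replicate 1 or 2, with adjusted p from 0.0581 to 0.0765, and Cep295nl overlaps Timp2 on the same strand. Timp3, held in the matrix itself, had a log2FC of 0.23 (adjusted p = 0.208) and Timp4 one of 0.10 (adjusted p = 0.311). Timp1, which is known to be induced by injury and inflammation, stayed below the filter, with 7, 5 and 9 counts in controls and 4, 6 and 5 in Kdm1a-ifKOs. Timp1, Timp3 and Timp4 lie inside or across the synapsin genes Syn1, Syn3 and Syn2 on the opposite strand.

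Of 23 metalloproteinase genes, 11 were tested and 4 rose, all by less than a log2FC of 1. Mmp17, an MMP anchored in the membrane by a lipid, was the most abundant of them with 5227, 5107 and 4684 counts in controls and 6948, 6094 and 6868 in Kdm1a-ifKOs. It rose from 264 ± 11.3 to 340 ± 26.4 CPM (SD, n = 3 each), by a log2FC of 0.36 (adjusted p = 0.00239). Mmp23 had 41, 37 and 44 counts against 75, 77 and 79, a log2FC of 0.87 (adjusted p = 0.00642), with a narrow spread in both groups. Mmp14 and Mmp15 encode MT1-MMP and MT2-MMP, proteases that span the membrane and, for MT1-MMP, activate pro-MMP2. Mmp14 had 292, 281 and 252 counts in controls and 314, 415 and 377 in Kdm1a-ifKOs, with a log2FC of 0.38 (adjusted p = 0.0388). Its lowest Kdm1a-ifKO library was close to the controls, and the call held only without Kdm1a-ifKO replicate 1 (0.0521 to 0.126 without each of the 5 others) and was lost in DESeq2 (0.0541). Mmp15 had 305, 315 and 271 against 368, 407 and 413 counts, a log2FC of 0.37 (adjusted p = 0.0164), and lost its call only without Kdm1a-ifKO replicate 3 (0.0729) among single libraries. The gelatinases, which cleave denatured collagen and are the most studied MMPs in synaptic plasticity, did not pass. Mmp2 had 50, 39 and 46 counts against 46, 54 and 52, and Mmp9 had 39, 46 and 33 against 35, 38 and 21 (adjusted p = 0.741 and 0.394). Mmp24, second in abundance among the metalloproteinases with 41.8 TPM in controls and found mainly in neurons, had a log2FC of -0.019 (adjusted p = 0.889).

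The 12 untested metalloproteinase genes include 10 that lie next to each other on chromosome 9, between 7272514 and 7699585 (Mmp13, Mmp12, Mmp1b, Mmp3, Mmp1a, Mmp10, Mmp8, Mmp27, Mmp20 and Mmp7). This group holds the collagenases and stromelysins, which are induced in connective tissue and inflammation. Over 427.1 kb and 6 libraries it gathered 23 counts in all, with no more than 4 for a gene in a library, and 7 of these genes were at 0 throughout. At this depth a count of 0 allows up to 3 counts in a library. The promoters of these 10 genes held between 0 and 4 CpGs, and 8 of them contained TATAAA, as that of Mmp3 shown above does. Of the 2 untested metalloproteinase genes elsewhere, Mmp21 had 9 counts in each control library and 11, 12 and 10 in Kdm1a-ifKOs, without overlap, and Mmp25 had 17, 12 and 6 against 9, 5 and 8.

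Of 17 tested ADAMTS protease genes, 3 rose and 1 fell. Adamts7 (ENSMUSG00000032363, chromosome 9, 90163069 to 90208071), which cleaves Comp, had 11, 6 and 7 counts in controls and 46, 43 and 24 in Kdm1a-ifKOs. All 3 Kdm1a-ifKO libraries were above the controls, with replicate 3 the lowest, and the log2FC was 2.17 (standard error 0.352, adjusted p = 0.00171). It passed the filter only through the Kdm1a-ifKO libraries, and it overlaps Tbc1d2b on the opposite strand. Adamts5, an aggrecanase, had 12, 25 and 20 counts against 35, 43 and 38, a log2FC of 0.97 (adjusted p = 0.0426). Adamts14, a procollagen N-propeptidase, had 85, 109 and 77 counts against 133, 136 and 131, a log2FC of 0.52 (adjusted p = 0.0462). Both calls sit close to the threshold. Of the single libraries left out, only control replicate 2 left them in place, while each of the others raised adjusted p to between 0.0671 and 0.117 for Adamts5 and between 0.0902 and 0.127 for Adamts14, and DESeq2 gave 0.113 and 0.0970. Adamts16 fell, with 103, 105 and 121 counts in controls and 59, 95 and 54 in Kdm1a-ifKOs, a log2FC of -0.71 (adjusted p = 0.0457). Its call held only when Kdm1a-ifKO replicate 2, its highest in that group, was left out, with adjusted p from 0.0701 to 0.156 without each of the others, and it overlaps 2 antisense transcripts.

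The aggrecanases that are most abundant in the hippocampus did not pass. Adamts4, at 22.7 TPM in controls, had 548, 528 and 485 counts against 486, 608 and 583 (log2FC 0.057, adjusted p = 0.732). Adamts1, at 18.7 TPM, had 464, 462 and 493 against 408, 466 and 481 (log2FC -0.11, adjusted p = 0.420). It lies 53.06 kb from Adamts5 with no gene between them, and the groups of Adamts1 overlapped while those of Adamts5 did not. Adamts10, a protease that binds microfibrils, followed at 17.8 TPM with a log2FC of 0.19 (adjusted p = 0.166). The other tested ADAMTS genes ranged from -0.60 for Adamts6 (63, 54 and 86 counts against 47, 52 and 39, adjusted p = 0.101) to 0.19 for Adamts8. Adamts12 and Adamts19 were not tested, with at most 8 counts in a library.

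ADAMTS-like proteins lack the protease domain and act as matrix scaffolds, several of them on fibrillin microfibrils. Adamtsl3 had 12, 18 and 32 counts in controls and 49, 55 and 43 in Kdm1a-ifKOs, a log2FC of 1.19 (adjusted p = 0.0264), with a wide spread in controls. It lost its call without control replicate 1 or 2 or Kdm1a-ifKO replicate 1 or 2 (adjusted p from 0.0651 to 0.0817). Adamtsl5 had 89, 80 and 62 counts against 120, 124 and 122, a log2FC of 0.62 (adjusted p = 0.0240). Its Kdm1a-ifKO libraries were nearly level, but the call held only without control replicate 1 (0.0519 to 0.0713 without each of the others). Adamtsl1 and Adamtsl4, the most abundant of the class with 3.73 and 8.57 TPM, had log2FCs of 0.22 (adjusted p = 0.303) and 0.046 (adjusted p = 0.920), and Adamtsl2 had one of -0.30 (adjusted p = 0.220).

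**Figure D3:**
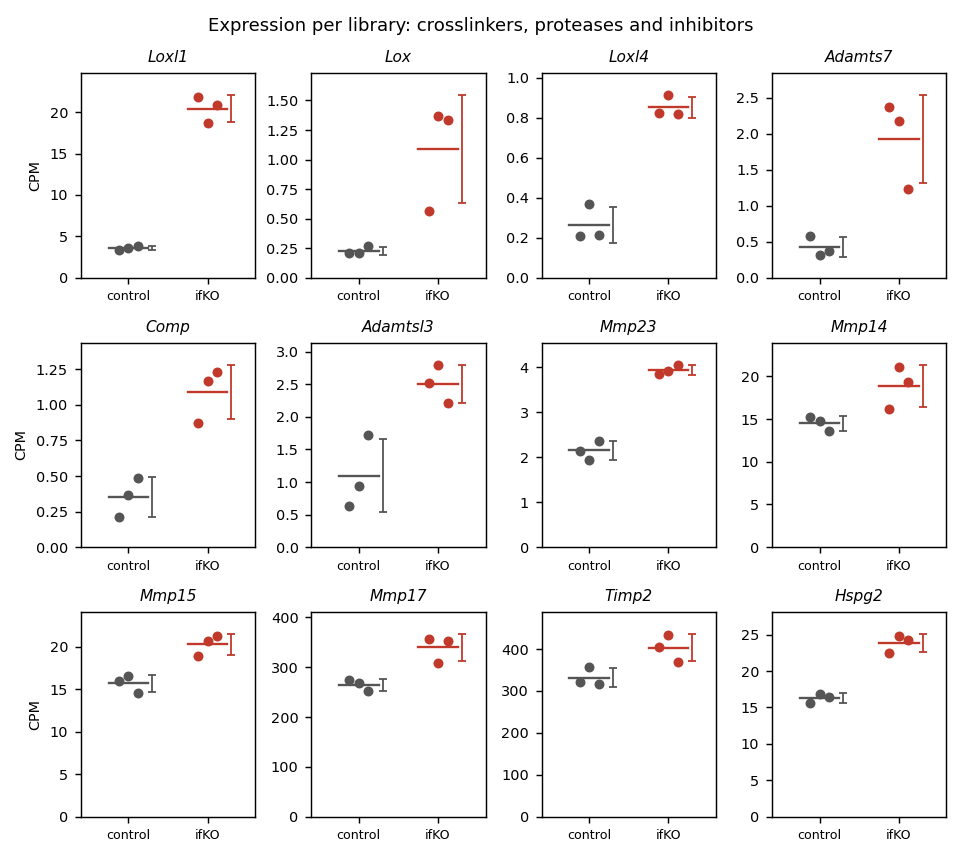
CPM per library (y axis, from 0, with a scale of its own in each panel) of 12 members that rose, in 3 control (grey) and 3 Kdm1a-ifKO (red) libraries; horizontal lines are means and bars 1 SD. Every panel shows separate groups, with means from 3.59 to 20.4 CPM for Loxl1, while Mmp14, Mmp15, Mmp17 and Timp2 rise by less than a log2FC of 0.4 and Lox, Loxl4, Adamts7 and Comp stay near or below 2 CPM. The last 4 named genes passed the filter only through the Kdm1a-ifKO libraries.

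Markers of cell types were read from the same libraries. The summed level of 6 astrocyte markers lay between 1705 and 1837 CPM in controls and between 2002 and 2198 CPM in Kdm1a-ifKOs, and 2 of the 6 rose (Slc1a3 and S100b, log2FC 0.22 and 0.26). Gfap had a larger log2FC of 0.38 without overlap of the groups, but it did not pass (adjusted p = 0.107). For 6 microglia markers the sums were 262 to 289 and 303 to 385 CPM, and 3 rose (Cx3cr1, Tmem119 and Csf1r). These increases are of the size of those of Bcan, Ncan, Timp2, Mmp14, Mmp15 and Mmp17, and their part in those results was not tested. Tmem119 had the highest log2FC of the markers that rose in the astrocyte and microglia lists, 0.42. Markers of fibroblasts and meninges summed to between 77.8 and 93.6 CPM in controls and between 45 and 142 CPM in Kdm1a-ifKOs, with the highest value in Kdm1a-ifKO replicate 2 and 0 of 7 past the test. Pericyte and smooth muscle markers summed to 197 to 203 against 197 to 264 CPM, and 1 of 6 rose (Pdgfrb, log2FC 0.39). Oligodendrocyte markers overlapped (5171 to 5705 against 4800 to 6253 CPM, 0 of 6 called), as did the sums for interneurons, the neurons that bear most nets (808 to 878 against 783 to 814 CPM), of which Vip fell. Pvalb, the marker of fast-spiking interneurons, and Gad2 lay below all controls in the 3 Kdm1a-ifKO libraries, with log2FCs of -0.23 and -0.16 that did not pass (adjusted p = 0.0529 and 0.0599). Their part in the results for net genes was not tested. Excitatory neuron markers summed to 7250 to 7696 against 7135 to 7847 CPM, and Neurod6 fell among them. Choroid plexus markers summed to 36.2 to 60.7 against 65.1 to 71.5 CPM. Of these 5 only Kl passed (log2FC 1.28), while Ttr and Clic6 had log2FCs of -1.49 and -0.85 with overlapping groups (adjusted p = 0.337 and 0.202). Thalamus markers, which would come from tissue beside the hippocampus, summed to 96.9 to 109 against 105 to 112 CPM, and went both ways: Prkcd rose (log2FC 0.57, adjusted p = 0.00186) and Slc17a6 fell (log2FC -1.09, adjusted p = 0.0215). The part of these lists in the members' results was not tested. Of the endothelial, ependymal and oligodendrocyte precursor markers, 0 of 6, 0 of 5 and 0 of 5 were called, with sums that overlapped between the groups.

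Further matrix genes in 6 lists were also chosen with earlier results of these data known, so their shares are not an independent test. The neighbourhood of the members was then extended to these 122 further matrix genes, which were not part of the choice by symbol. Of these, 112 were tested, 18 rose (16.1%) and 0 fell in the edgeR quasi-likelihood test (0 in DESeq2 too). Of all tested genes, 6.04% passed as higher and 2.82% as lower, and the counts per list below stand beside the same shares. At an unadjusted p under 0.05 in the edgeR test, 3 of the 112 were lower and 37 higher. The share of all tested genes at that level is not given here. The median log2FC of the 108 that pass the filter in controls alone was 0.16, against -0.0084 for all such genes. Without Kdm1a-ifKO replicate 2, 4 genes fell, and 5 without both libraries that stood apart.

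The elastic fibre list had a median log2FC of 0.34 over the 15 genes that pass the filter in controls alone. That of all 15988 such genes was -0.0084. The largest change in the list was that of Ltbp2. Ltbp2, a latent TGF-beta binding protein of microfibrils, had 3, 5 and 3 counts in controls and 402, 358 and 344 in Kdm1a-ifKOs, or 0.194 ± 0.0598 and 18.8 ± 1.61 CPM (SD, n = 3 each). It rose by a log2FC of 6.56 (adjusted p = 1.52e-10). It passed the filter only through the Kdm1a-ifKO libraries. Mfap2, a microfibril protein (log2FC 0.91, adjusted p = 0.00152), Ltbp3 (0.39, 0.00309) and Efemp1 (0.40, 0.0481) rose as well, so that 4 of 16 tested genes of this list were higher.

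Among 26 tested glycoproteins of matrix and basement membrane, 5 rose. Tnxb, which encodes tenascin-X and overlaps a pseudogene, had 638, 616 and 626 counts in controls and 1395, 1054 and 1255 in Kdm1a-ifKOs (log2FC 0.93, adjusted p = 1.31e-04), unlike the tenascins among the members. Nid2, a basement membrane linker (0.81, 0.00403), Thbs3 (0.61, 2.19e-04), the laminin chain gene Lama5 (0.48, 0.00194) and Matn2 (0.32, 0.00925) followed, each value being a log2FC and its adjusted p. Matn2 lost its call without Kdm1a-ifKO replicate 3 (0.0538).

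Among 25 other proteases and inhibitors, 3 rose. Bmp1, which removes propeptides from collagens and from lysyl oxidase precursors, had 1926, 1942 and 1771 counts in controls and 3170, 2676 and 3333 in Kdm1a-ifKOs (log2FC 0.66, adjusted p = 3.51e-04). Htra1 had a log2FC of 0.39 (adjusted p = 0.0368) and lost its call without any single control library (0.0762 to 0.103). Serpine2 had a log2FC of 0.20 (adjusted p = 0.0170), a call lost without control replicate 2 or Kdm1a-ifKO replicate 1 or 3 (0.0558 to 0.0974).

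Chondroitin sulfate chains are carried by the lecticans. Of 14 tested genes of chondroitin sulfate synthesis, only Chst7, a sulfotransferase, rose, with 52, 40 and 30 counts against 97, 88 and 98 (log2FC 1.17, adjusted p = 0.00210). The groups did not overlap for 3 of the 14 as higher and for 3 as lower, against 15.7% and 14.4% of all tested genes. The log2FCs of the 14 ranged from -0.33 to 1.17. Of 8 tested genes of hyaluronan synthesis and its receptors, only the hyaluronidase gene Hyal2 rose (log2FC 0.39, adjusted p = 0.0428). Of 23 other proteoglycan genes, Gpc3 (0.63, adjusted p = 0.0124), Prelp (0.30, 0.00872), Gpc5 (0.22, 0.0426) and Sdc3 (0.21, 0.0374) rose. The calls of Hyal2, Gpc5 and Sdc3, like that of Efemp1, held in 1 of the 6 fits that each left out a library, with adjusted p up to 0.159, 0.132, 0.174 and 0.141, and Gpc3 lost its call only without Kdm1a-ifKO replicate 1 (0.0639).

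**Figure D4:**
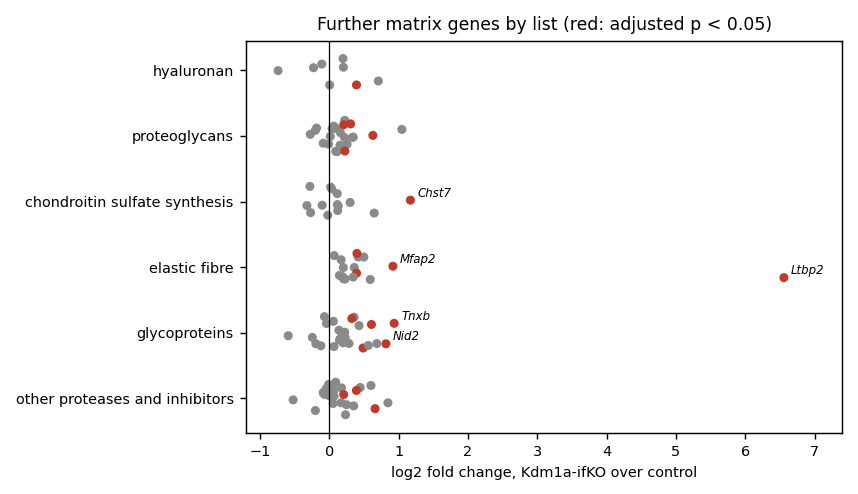
Log2 fold change (x axis, Kdm1a-ifKO over control) of the 112 tested further matrix genes in 6 lists (rows; vertical scatter within a row has no meaning), with genes past an adjusted p of 0.05 in red. Ltbp2 stands alone at 6.56, Chst7, Tnxb, Mfap2 and Nid2 lie between 0.81 and 1.17, and the other genes that rose lie below 0.7.

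CTCF loops give a readout that did not enter the choice of the members. The ChIA-PET library of WT neurons holds 27786 loops, each supported by at least 3 paired-end tags (PETs), and with a single library these values are a description without a test. An anchor lay within 10 kb of the body of 43 of the 68 members (63.2%), against 56.9% of 16758 tested genes. The 68 include the 16 untested members, of which 4 had an anchor, so these sets are not alike. Among tested members, an anchor lay as near to 14 of the 19 that rose (73.7%), to Adamts16, which fell, and to 24 of the 32 that did not pass (75%). Over all tested genes, the shares were 71.6% of those that rose and 56.4% of those that did not pass. Counted from the start of the gene, an anchor lay within 10 kb for 35.3% of the 68 members, untested ones included, and for 36.9% of tested genes. The sets are again unlike, so no order is read from these shares.

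Adamts14 lay at the strongest of these loops, with 291 PETs over 136.5 kb between an anchor in the gene and one at Pald1, which rose as well. Bcan was next among members that rose, with a loop of 152 PETs over 15.5 kb whose other end lies at Nes, and 13 loops in all. Adamtsl5 had a loop of 118 PETs, Hspg2 a single loop of 48 PETs, and Mmp17 13 loops with up to 48 PETs. Loxl1 had 17 loops, the most of the members that rose, but none with more than 11 PETs. Hapln4 and Ncan were joined by a loop of 8 PETs over 32.9 kb, and both rose. Of the other loops between members, Bcan and Hapln2 shared one of 3 PETs over 24.2 kb, where only Bcan rose, and Adamts15 and Adamts8 one of 3 PETs over 16.2 kb, where neither passed. Members that did not pass also had loops to genes that rose, such as Adamts13 to Sardh (44 PETs) and Mmp9 to Cdh22 (3 PETs). The loops of Hapln3, which rose, reached no gene that rose. The share of loops with such a gene at the far end is not given here. Strong loops were also found at members that did not pass, among them Adamts8 (277 PETs), Mmp2 (246 PETs) and Acan (84 PETs), and no anchor was found within 10 kb of Lox, Loxl4, Mmp23, Adamts5 or Adamtsl3, which rose.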

How the data were processed

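RNA-seq covered the hippocampi of 3 control and 3 Kdm1a-ifKO mice, 1 library per sample. The authors trimmed single-end poly-A reads with cutadapt 1.18, aligned them to mm10 with HISAT2 2.1.0, kept reads with mapping quality over 30 on nuclear chromosomes and used HTSeq 0.11.1 to count them per Ensembl gene. The deposited values are raw read counts, and the strand setting is not given in the sources used here. The authors also made the loops with ChIA-PIPE, and their deposited PET counts cover loops of at least 3 PETs with a CTCF peak at both anchors. Replicate error therefore exists for the RNA-seq and not for the loops.

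Counts were tested here with edgeR 4.0.16 (R 4.3.3): filterByExpr, TMM factors, robust quasi-likelihood test, genotype as the only factor, Benjamini-Hochberg adjustment over 16799 genes. The standard error is the log2FC divided by the root of the F statistic. CPM values use TMM-scaled library sizes and TPM values the summed exon length. Exact permutation of 3 against 3 cannot give a p under 0.1. Genes were placed with GENCODE M21 (GRCm38), in which 99.3% of those counted were found. The scripts were tested on simulated data.

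The members and the lists were chosen with earlier results of these data known. Genes named in the text are Kdm1a, all called members, all lysyl oxidases, Timps, link proteins, lecticans, tenascins, Hspg2 and Comp, the 3 members most abundant in controls by TPM of the other classes, untested members with at least 10 counts in Kdm1a-ifKOs and no overlap, and called genes of the further lists. Mmp2, Mmp9, Mmp25, Adamts6, Adamts8, Adamts13, Adamts15, Adamtsl2, the other untested members, cell type markers and loop neighbours fall outside this rule and were named after their values were seen. The alternatives were DESeq2 1.42.0, its size factors, upper-quartile scaling, no filter, at least 10 summed counts, a replicate block, each library left out, other PET minimums and anchor distances and, added after seeing the data, leaving out both libraries that stood apart. The histone ChIP-seq, Kdm1a ChIP-seq and 4C-seq samples of the series were not used here.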

Additional observations from a re-analysis of the deposited data

How the results depend on the processing

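Of the 19 members that rose, 9 kept an adjusted p under 0.05 in every fit that left out 1 library (Loxl1, Lox, Hapln3, Hapln4, Bcan, Hspg2, Adamts7, Mmp17 and Mmp23). Of these 9, Lox and Adamts7 passed the filter only through the Kdm1a-ifKO libraries, so a difference was built into their selection. The count of members that rose ranged from 11 to 15 in the fits with 1 library left out and the count that fell from 0 to 1. It was 14 in DESeq2 (without Adamts14, Adamts5, Comp and Mmp14, and with no adjusted p for Loxl4), 19 with DESeq2's size factors, with upper-quartile scaling and with at least 10 summed counts, and 20 without a filter, where 3 members fell (Adamts16, Adamts6 and Mmp16). Samples with the same replicate number did not deviate together (correlations -0.033, -0.0911 and -0.148), while those with unlike numbers gave -0.0918 to 0.162. These values show no pairing by number, but they cannot exclude a shared litter or preparation. With the replicate block, 15 members rose and 0 fell. Among the further matrix genes, 30 rose and 3 fell without a filter, 0 to 4 fell with 1 library left out, and 5 fell without both libraries that stood apart. Without these 2 libraries, 14 members rose, of which 13 were among the 19. Of the 68 members, 28 had a loop anchor at 10 PETs or more (41.2%, against 35.4% of tested genes), 32 an anchor overlapping the body (47.1% against 39.5%), 52 one within 25 kb (76.5% against 68.5%) and 24 one within 10 kb of the start (35.3% against 36.9%), where it had been 43. These member shares include untested members, while the shares set against them cover tested genes only.

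Without both libraries, Adamts14, Adamts5, Adamtsl5, Loxl4, Mmp14 and Mmp15 lost their calls (adjusted p from 0.0611 to 0.190), and Timp3 passed. Members that did not pass changed sign in some fits. With 1 library left out, the log2FC ranged from -0.25 to 0.010 for Vcan, -0.012 to 0.25 for Hapln2, -0.069 to 0.046 for Hapln1, -0.037 to 0.36 for Tnc, -0.24 to 0.061 for Tnr, -0.0033 to 0.15 for Adamts4, -0.10 to 0.24 for Adamtsl4 and -0.042 to 0.019 for Mmp24, which was 0.0068 with upper-quartile scaling. Without both libraries that stood apart, it was 0.028 for Vcan, 0.084 for Tnr, -0.19 for Tnc, -0.034 for Adamts4 and -0.11 for Adamtsl4. The cause was not tested. The folds of Lox, Loxl4, Comp and Adamts7 rest on fewer than 50 counts per library.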
